A study of Mus musculus with 12 samples.

Results

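Ribosome biogenesis genes encode the proteins that make ribosomal RNA and assemble it with ribosomal proteins into ribosomal subunits. Of 41 such genes, 39 were measured here, among 12393 genes with a probe set of 1 gene symbol, and Dkc1 and Nat10 were not analysed here. Each gene was represented by the probe set that matched its symbol alone and had the highest mean log2(signal + 16) over all 12 arrays, so no difference between groups was used to choose it. All 39 probe sets lay above the low-signal filter, which took the mean over the 11 arrays that share a table, whatever their group.

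RNA came from BW5147, a mouse thymic lymphoma line of the T lineage, and was hybridised to Affymetrix expression arrays, 2 arrays for each of 6 groups. For 8 h the cells received 100 ng/ml dexamethasone (Dex, a synthetic glucocorticoid) with 100 U/ml interleukin 9 (Dex+IL-9), IL-9 alone, Dex with 100 U/ml of the chemokine CCL-1 (Dex+CCL-1), CCL-1 alone, Dex alone, or nothing (unstimulated). The question was which genes these agents induce, singly and together. The labels do not say whether the 2 arrays of a group came from separate cultures of this 1 line, so the p-values measure the spread between arrays, which may be technical.

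In the nucleolus, RNA polymerase I transcribes ribosomal DNA into 1 long precursor. Small nucleolar ribonucleoproteins modify this precursor: the box C/D class methylates riboses and the box H/ACA class converts uridines to pseudouridines. The small-subunit processome and the pre-60S factors then cut, fold and export the subunits. The pathway as a whole is a known target of the transcription factor MYC and is high in growing lymphocytes and lymphomas.

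Some arrays stood apart and touch what follows. In the array labelled Dex 2, 591 of 13575 probe sets were lower than in every other array by more than 0.5 log2, against 2 to 35 in each of the other 11 arrays. Glucocorticoid targets such as Tsc22d3 and Fkbp5 stood at the level of the Dex arrays in 3 arrays labelled without Dex. Their mean centred level was 0.27 in unstimulated 1, 0.34 in IL-9 1 and 0.21 in CCL-1 1, against -0.75 in unstimulated 2, -0.60 in IL-9 2, -0.82 in CCL-1 2 and 0.033 to 0.40 in the 6 Dex arrays. This mean of 9 targets includes Sgk1 and Zfp36, which raise it in the arrays with IL-9. Sgk1 had 226 to 311 there and 33.0 to 70.7 in the other arrays, and Zfp36 47.1 to 65.6 and 14.4 to 33.4. The array CCL-1 2 was of another array type and came in a table of its own, so its values are given but were not tested with the 11 others. T cell markers were present (9 of 10 measured, summed signal 5126 to 6919), with Cd5 and Cd2 at most 14.4. Summed signals were 7.35 to 25.4 for B cell, 23.6 to 42.8 for myeloid and 0.799 to 5.88 for erythroid markers. Fibroblast markers summed to 204 to 318 in the 8 arrays with cytokine and 295 to 420.4 in the 4 without, nearly all of it from the Pdgfrb probe set (181 to 296 and 293 to 391), with collagen probe sets at 16.2 or less.

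The promoters show where the pathway's known regulator could bind. The canonical E-box that MYC binds with its partner MAX, CACGTG, reads the same on both strands. Promoter sequence from 250 bases before to 50 bases after the gene start was found for 35 of the 41 genes in RefSeq (GRCm38.p6). The E-box was present in 8 of these 35 genes (22.9%), against 8.09% of 27025 genes with a promoter of the same length. They were Imp4, Mybbp1a, Nop2, Pes1, Rrn3 (with a pair of sites), Utp18, Utp20 and Wdr43. Windows of 5 genes described further on are shown, each read 5′ to 3′ on the gene's strand with the E-box in capitals, so that its distance from the start and its flanks can be compared.
Mybbp1a: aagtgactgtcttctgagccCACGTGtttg
Utp20: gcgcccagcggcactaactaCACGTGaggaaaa
Utp18: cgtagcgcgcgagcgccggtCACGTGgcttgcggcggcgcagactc
Wdr43: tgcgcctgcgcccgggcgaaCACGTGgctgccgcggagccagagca
Nop2: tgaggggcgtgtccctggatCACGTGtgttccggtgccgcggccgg
The Mybbp1a window lies at chr11:72441347-72441376 on the plus strand and its E-box begins 40 bases after the gene start. In Utp20 (chr10:88826765-88826797, minus strand) the motif begins 37 bases after the start. In Utp18 (chr11:93885761-93885806, minus strand) it begins 20 bases before the start, in Wdr43 (chr17:71616212-71616257, plus strand) 17 bases after it, and in Nop2 (chr6:125131803-125131848, plus strand) 60 bases before it. A core of ETS factor sites, CCGGAAG on either strand, was present in 11 of the 35 genes (31.4%, against 9.93% of all genes), and a GC box, GGGCGG on either strand, in 26 (74.3%, against 38.2%). The shares over all genes cover every gene with a promoter, also genes not measured here. Each of these motifs was more frequent in the members, so a higher share was not particular to the E-box. These are matches of letters and no binding was measured.

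Ribosome biogenesis genes were slightly higher in the arrays that received IL-9 or CCL-1 than in those that received no cytokine, by 0.20 log2 with IL-9 and 0.16 with CCL-1 for the median gene, and no single gene passed the test. In the arrays numbered 2 alone these medians were 0.11 and 0.092. The members above their own mean over 12 arrays numbered 32 and 24 of 39 in the Dex+IL-9 arrays, 27 and 25 in the IL-9 arrays, 26 and 21 in the Dex+CCL-1 arrays and 30 and 20 in the CCL-1 arrays, against 8 and 18 in the Dex arrays and 9 and 13 in the unstimulated arrays. In each pair here and below, the array numbered 1 comes first. As shares, the 8 cytokine arrays had 51.3% to 82.1% of members above their mean, and the 4 arrays without cytokine 20.5% to 46.2%. Over all 13575 probe sets the corresponding shares were 46.4% to 53.4% with cytokine and 53.0% to 56.1% without. The median centred level of the members averaged 0.13 log2 more in the 8 arrays with cytokine than in the 4 without. Apart from Dex+CCL-1 2, the Pdgfrb signal was lower in each cytokine array than in all 4 without, and its part in the result was not tested.

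**Figure D1:**
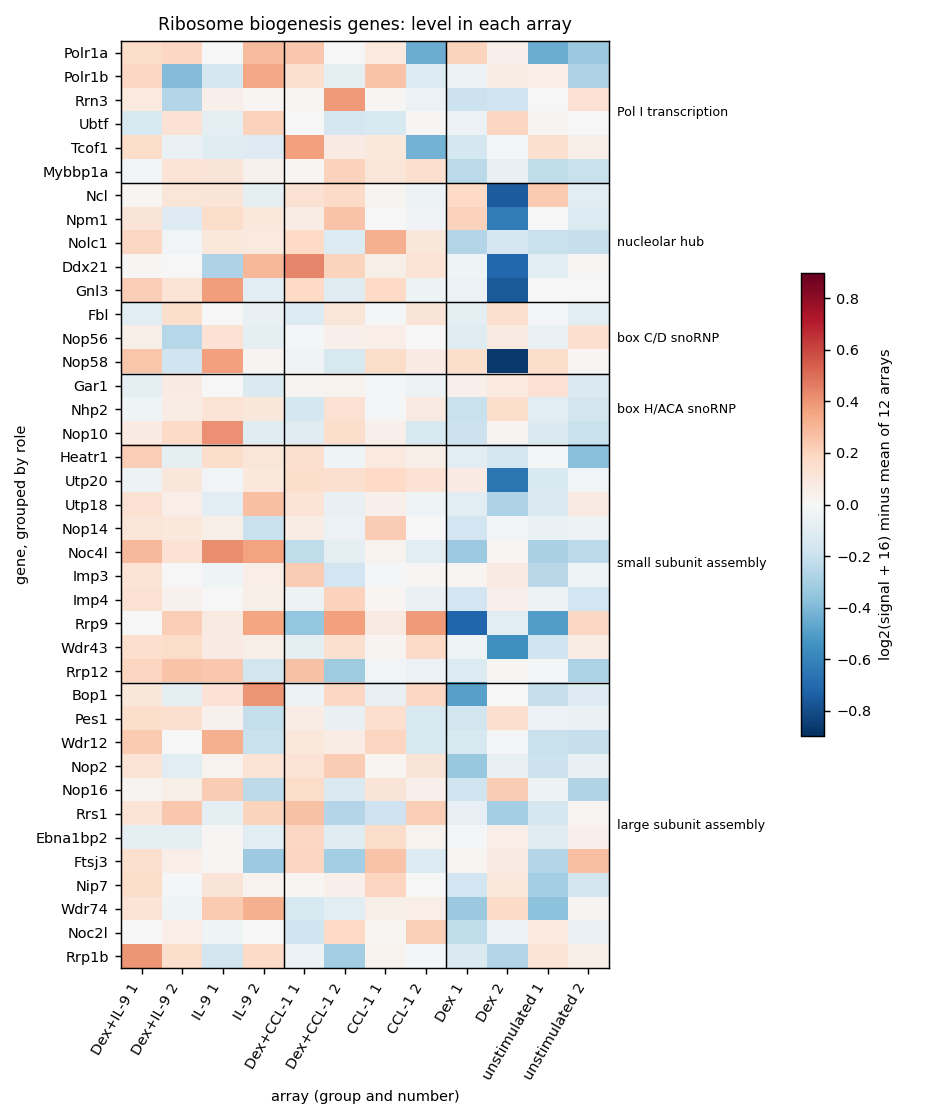
Each row is 1 of the 39 measured ribosome biogenesis genes, grouped by role, and each column 1 of the 12 arrays. The colour is the log2(signal + 16) minus the gene's mean over the 12 arrays, red above and blue below. Members above their own mean number 20 to 32 in the 8 cytokine columns and 8 to 18 in the 4 columns without cytokine, and the darkest blue cells of the nucleolar hub and of Nop58 lie in the column Dex 2.

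IL-9 was tested first, as the mean of its effects in Dex-treated and in other cells (4 arrays against 4). The difference in log2(signal + 16) was positive for 33 of the 39 members with a median of 0.20, against 47.3% positive and a median of -0.012 over all probe sets. No member passed an adjusted p of 0.05 by limma with Benjamini-Hochberg adjustment over all probe sets, where 13 of 13575 (0.0958%) did. At an unadjusted p under 0.05 there were 7 members, and 1164 of all probe sets. For scale, Bcl3, an atypical IkB protein, rose by 2.85 log2 in the same test (adjusted p = 8.10e-06). Without the array Dex 2, 32 members were positive with a median of 0.16.

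CCL-1 was then set against no cytokine in the same way (3 arrays against 4, with CCL-1 2 left out). Here 36 of the 39 differences were positive with a median of 0.16, against 46.3% and -0.017 over all probe sets. Again no member passed by limma, where 1 probe set of 13575 did (0.00737%), Dusp6, a phosphatase that inactivates ERK kinases, which rose by 1.50 (adjusted p = 0.00141). Unadjusted, 2 members and 760 of all probe sets had a p under 0.05. Without Dex 2, 33 members were positive with a median of 0.17. Both cytokine averages rest on the same Dex and unstimulated arrays, so their values are given side by side and not as 2 observations. Because only the CCL-1 array numbered 1 entered the test, against unstimulated arrays of both numbers, the CCL-1 average carries part of any difference between numbers.

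**Figure D2:**
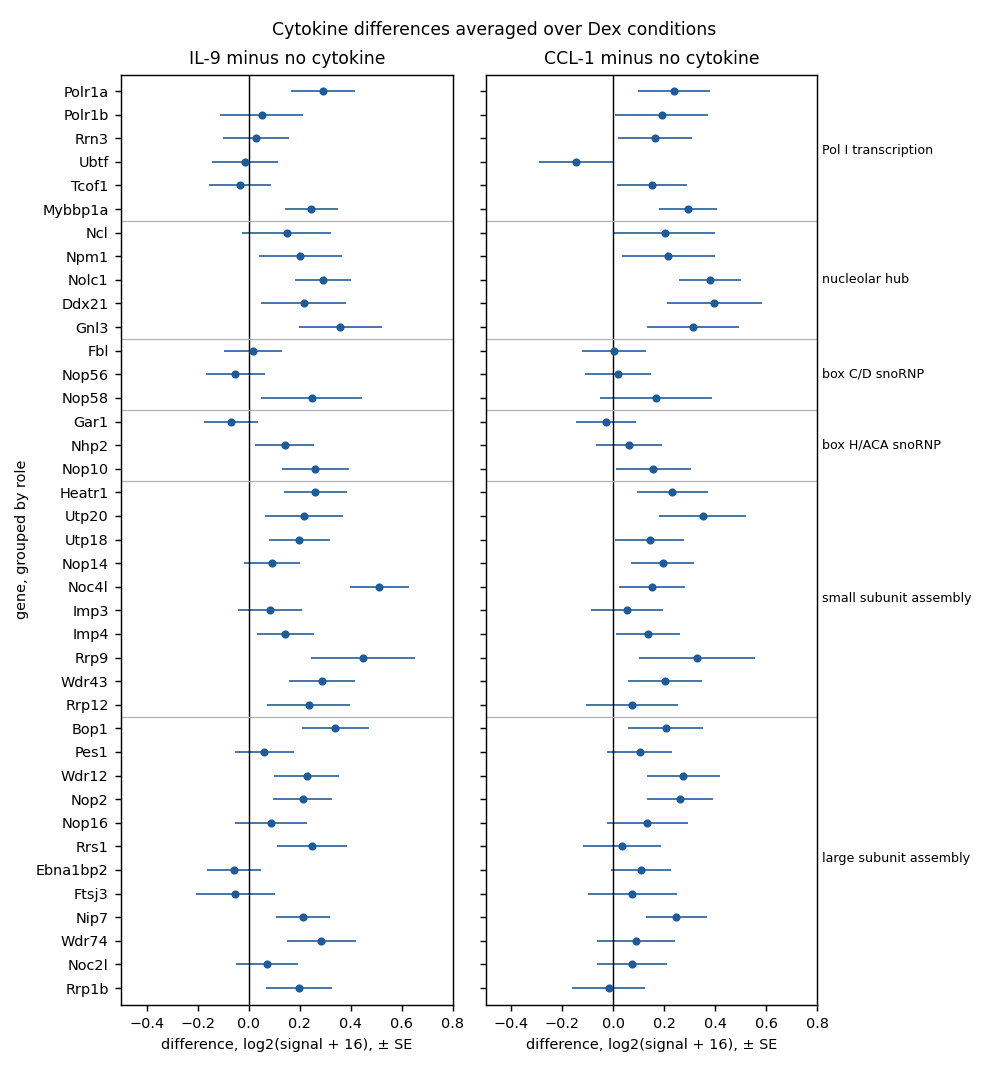
Points are the log2(signal + 16) differences of the 39 genes for IL-9 (left) and CCL-1 (right) against no cytokine, each the mean of the effects in Dex-treated and in other cells, and lines are 1 SE of the limma fit. On the left 33 points and on the right 36 lie above 0, Noc4l is highest for IL-9 at 0.51 and Ddx21 for CCL-1 at 0.40, and no gene passed the adjusted threshold.

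Among the RNA polymerase I factors, 4 of 6 differences were positive with IL-9 (median 0.040, and 6 of 6 with a median of 0.062 without Dex 2) and 5 of 6 with CCL-1 (median 0.18). Mybbp1a, a nucleolar MYB-binding protein whose E-box window is printed above, was the most even of them. Its signals were 771 and 857 in the Dex+IL-9 arrays, 849 and 804 in the IL-9 arrays, 791 and 908 in the Dex+CCL-1 arrays and 848 and 872 in the CCL-1 arrays, against 661 and 746 in the Dex arrays and 668 and 682 in the unstimulated arrays. All 8 cytokine arrays lay above all 4 without cytokine. The difference was 0.25 (SE 0.10, adjusted p = 0.543 by limma) with IL-9 and 0.29 (SE 0.11, adjusted p = 0.849) with CCL-1.

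Polr1a, the largest subunit of the polymerase, had signals of 105 and 107 in the Dex+IL-9 arrays, 92.5 and 116 in the IL-9 arrays, 112 and 92.5 in the Dex+CCL-1 arrays and 98.9 and 63.4 in the CCL-1 arrays, against 108 and 95.8 in the Dex arrays and 63.2 and 69.8 in the unstimulated arrays. In this probe set the low arrays were the unstimulated pair and CCL-1 2, and the Dex arrays stood with the cytokine arrays. The other, dimmer probe sets of Polr1a had 52.5 and 48.3 in Dex 1, below 79.8 and 67.3 in Dex 2. Their CCL-1 averages were 0.0017 and -0.030, against 0.24 in the one used, and their IL-9 averages 0.18 and 0.25, against 0.29. In the one used the IL-9 difference was 0.54 (SE 0.18, adjusted p = 0.987 by limma) against unstimulated cells and 0.048 (SE 0.18, adjusted p = 0.978) within Dex. The difference between these effects, with minus without Dex, was -0.49 (SE 0.25), not past the threshold. Polr1b, the second largest subunit, had 204 and 132 in the Dex+IL-9 arrays, 158 and 230.5 in the IL-9 arrays, 197 and 166 in the Dex+CCL-1 arrays and 215 and 162 in the CCL-1 arrays, against 171 and 186 in the Dex arrays and 186 and 144 in the unstimulated arrays. The groups overlapped throughout (0.050, SE 0.16, with IL-9).

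Ubtf, which binds ribosomal DNA and keeps it open for transcription, had the lowest CCL-1 difference of all members, at -0.15 (SE 0.14, adjusted p = 0.940). Its signals were 129 and 114 in the Dex+CCL-1 arrays and 115 and 129 in the CCL-1 arrays, against 123 and 149.5 in the Dex arrays and 131 and 128 in the unstimulated arrays. With Dex+IL-9 they were 115 and 142, and with IL-9 119.8 and 151, so the groups overlapped. Rrn3, the initiation factor that recruits the polymerase, and Tcof1, the nucleolar scaffold treacle, differed by 0.029 (SE 0.13) and -0.034 (SE 0.12) with IL-9 and by 0.16 (SE 0.15) and 0.15 (SE 0.14) with CCL-1. The other, dimmer probe sets of Tcof1 gave -0.22 and -0.27 with CCL-1, so its sign there depended on the probe set.

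The nucleolar hub proteins had 5 of 5 positive differences with IL-9 (median 0.22) and 5 of 5 with CCL-1 (median 0.31). Both counts rest on the array Dex 2: without it 3 of 5 were positive with IL-9 (median 0.048) and 4 of 5 with CCL-1 (median 0.14). Nolc1, a chaperone of small nucleolar ribonucleoproteins, had signals of 743 and 639 in the Dex+IL-9 arrays, 698 and 696 in the IL-9 arrays, 741 and 598 in the Dex+CCL-1 arrays and 817 and 701 in the CCL-1 arrays, against 541 and 585 in the Dex arrays and 566 and 562 in the unstimulated arrays. Every cytokine array was above every array without cytokine. The differences were 0.29 (SE 0.11, adjusted p = 0.499) with IL-9 and 0.38 (SE 0.12, adjusted p = 0.658, the lowest of the members there) with CCL-1.

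Ncl, encoding nucleolin, had 2234 and 2382 in the Dex+IL-9 arrays, 2396 and 2082 in the IL-9 arrays, 2438 and 2494 in the Dex+CCL-1 arrays and 2250.1 and 2139 in the CCL-1 arrays, against 2504 and 1309 in the Dex arrays and 2601 and 2057 in the unstimulated arrays. Dex 2 was the lowest by far, with the other 11 arrays between 2057 and 2601. Npm1, encoding the nucleolar chaperone nucleophosmin, had 3308 and 2822 in the Dex+IL-9 arrays, 3419 and 3262 in the IL-9 arrays, 3205 and 3648 in the Dex+CCL-1 arrays and 3042 and 2979 in the CCL-1 arrays, against 3531 and 1971 in the Dex arrays and 3044 and 2797 in the unstimulated arrays. It too was lowest in Dex 2. Ncl differed by 0.15 (SE 0.18) with IL-9 and 0.20 (SE 0.20) with CCL-1, and without Dex 2 by -0.084 and -0.031.

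Ddx21, an RNA helicase of both polymerase I transcription and rRNA processing, had 303 and 300.2 in the Dex+IL-9 arrays, 245 and 373 in the IL-9 arrays, 414 and 349 in the Dex+CCL-1 arrays and 312 and 328 in the CCL-1 arrays, against 292 and 178 in the Dex arrays and 279 and 304 in the unstimulated arrays. Each of the 4 CCL-1-treated arrays was above the 4 without cytokine, whereas IL-9 1 was below 3 of them. The CCL-1 difference of 0.40 (SE 0.19, adjusted p = 0.894) was 0.23 without Dex 2. Gnl3, the nucleolar GTPase nucleostemin, had 739 and 689.9 in the Dex+IL-9 arrays, 825 and 587 in the IL-9 arrays, 718 and 585 in the Dex+CCL-1 arrays and 716 and 611 in the CCL-1 arrays, against 607 and 367 in the Dex arrays and 629.8 and 629 in the unstimulated arrays. Its differences of 0.36 (SE 0.16, adjusted p = 0.580) with IL-9 and 0.31 (SE 0.18, adjusted p = 0.921) with CCL-1 were 0.18 and 0.14 without Dex 2.

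**Figure D3:**
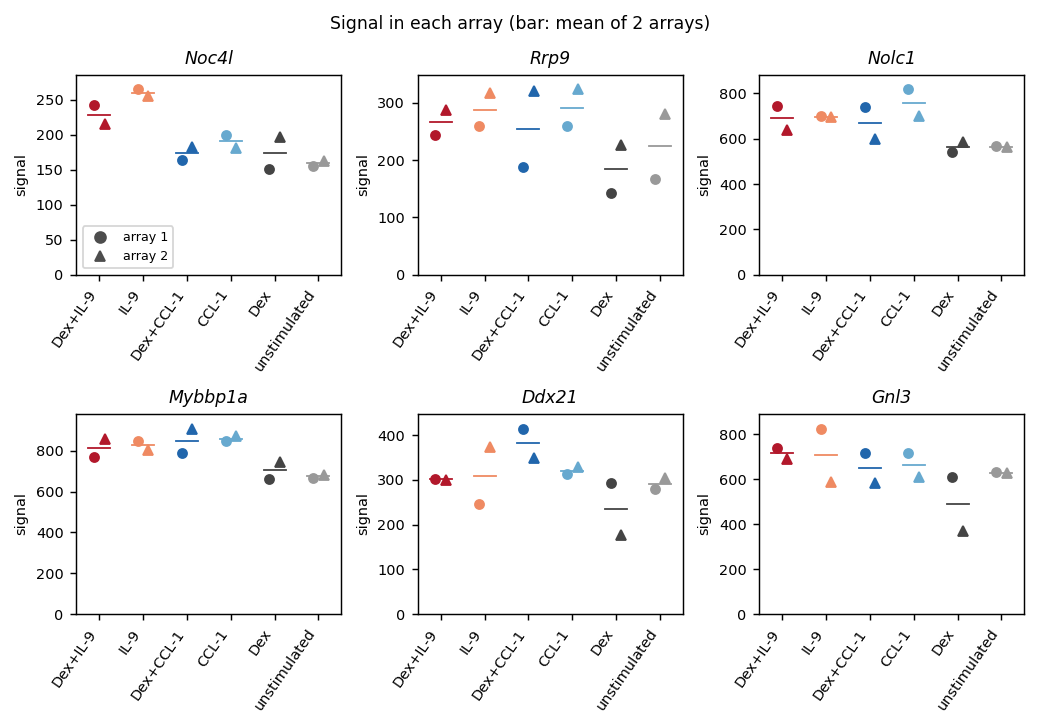
Signals of 6 members in each array, circles for arrays numbered 1 and triangles for arrays numbered 2, with a bar at the mean of the pair and the vertical axis starting at 0. The array CCL-1 2 is of the other array type. Mybbp1a and Nolc1 lie higher in all 8 cytokine arrays than in the Dex and unstimulated arrays, Noc4l is highest in the 4 IL-9-treated arrays, Rrp9 follows the array number, and Ddx21 and Gnl3 are lowest in Dex 2.

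The box C/D ribonucleoprotein genes were close to 0 apart from Nop58. Fbl, encoding the rRNA methyltransferase fibrillarin, had signals of 1588 and 1902 in the Dex+IL-9 arrays, 1692 and 1621 in the IL-9 arrays, 1558 and 1831 in the Dex+CCL-1 arrays and 1675 and 1845 in the CCL-1 arrays, against 1594 and 1877 in the Dex arrays and 1674 and 1581 in the unstimulated arrays. The groups overlapped and the difference was 0.016 (SE 0.11) with IL-9 and 0.0039 (SE 0.13) with CCL-1. Nop56, a core scaffold of the particle, had 777 and 626 in the Dex+IL-9 arrays, 822 and 709 in the IL-9 arrays, 739.7 and 773 in the Dex+CCL-1 arrays and 779 and 747 in the CCL-1 arrays, against 692 and 794 in the Dex arrays and 717 and 835 in the unstimulated arrays. Its IL-9 difference was -0.053 (SE 0.12) and that of its other probe set 0.22, so the sign depended on the probe set. Nop58, the partner scaffold, had 577 and 426 in the Dex+IL-9 arrays, 629 and 491 in the IL-9 arrays, 472 and 436 in the Dex+CCL-1 arrays and 543 and 511 in the CCL-1 arrays, against 542 and 258 in the Dex arrays and 542 and 490.1 in the unstimulated arrays. Its 0.25 (SE 0.20) with IL-9 was -0.010 without Dex 2.

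Of the box H/ACA genes, Gar1, a core protein of the particle, had 531 and 592 in the Dex+IL-9 arrays, 564 and 512 in the IL-9 arrays, 572 and 575 in the Dex+CCL-1 arrays and 556 and 545 in the CCL-1 arrays, against 580.4 and 600.3 in the Dex arrays and 619.5 and 513 in the unstimulated arrays. These ranges overlapped, with a difference of -0.070 (SE 0.10) with IL-9, the lowest of the members, and -0.030 (SE 0.12) with CCL-1, where median centring gave 0.0049. Nhp2, which binds the guide RNA, had 1531 and 1652 in the Dex+IL-9 arrays, 1719.5 and 1693 in the IL-9 arrays, 1408 and 1736 in the Dex+CCL-1 arrays and 1554 and 1664 in the CCL-1 arrays, against 1369 and 1754 in the Dex arrays and 1473 and 1403 in the unstimulated arrays. Apart from Dex+CCL-1 1 the cytokine arrays were above 3 of the 4 without cytokine, and Dex 2 was the highest of all. Nop10, the smallest protein of the particle, had 930.2 and 995 in the Dex+IL-9 arrays, 1179 and 816 in the IL-9 arrays, 817 and 984 in the Dex+CCL-1 arrays and 909.6 and 795 in the CCL-1 arrays, against 770.4 and 899 in the Dex arrays and 806 and 764 in the unstimulated arrays. Its IL-9 difference was 0.26 (SE 0.13, adjusted p = 0.623).

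The 10 small-subunit genes were all positive in both averages, with a median of 0.23 for IL-9 and 0.17 for CCL-1. Noc4l, whose yeast counterpart works with Nop14 in small-subunit maturation, had the highest IL-9 difference of all members. Its signals were 242 and 215 in the Dex+IL-9 arrays and 264 and 255 in the IL-9 arrays, against 151 and 197 in the Dex arrays and 156 and 162 in the unstimulated arrays. The 4 IL-9-treated arrays were the highest of the 12, since the Dex+CCL-1 arrays had 164 and 183 and the CCL-1 arrays 199 and 181. The difference was 0.51 (SE 0.12), an adjusted p of 0.199 by limma, and its other probe sets gave 0.43 and 0.45. It passed in 2 other fits, each of which counts array number or uses 1 number: with number and Dex within number as terms and CCL-1 2 added (0.51, adjusted p = 0.0350, where 1.05% of all probe sets passed), a fit chosen after the data were seen, and in the arrays numbered 1 alone (0.67, adjusted p = 0.0123, where 1.55% did). In the arrays numbered 2 alone it was 0.36 (adjusted p = 0.766). Set against CCL-1, IL-9 gave 0.36 more (SE 0.13, adjusted p = 0.811).

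Rrp9, which binds the U3 small nucleolar RNA, followed the array number. It had 245 and 288 in the Dex+IL-9 arrays, 259 and 317 in the IL-9 arrays, 188 and 320.2 in the Dex+CCL-1 arrays and 259.5 and 324 in the CCL-1 arrays, against 143 and 226 in the Dex arrays and 168 and 281 in the unstimulated arrays. In each group the array numbered 2 was the higher, and within a number each cytokine array was above both arrays without cytokine. The IL-9 difference of 0.45 (SE 0.20, adjusted p = 0.584) was 0.65 in the arrays numbered 1 alone and 0.25 in those numbered 2. That of Wdr74, a pre-60S factor, was 0.53 in the arrays numbered 1 alone and 0.043 in those numbered 2.

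Utp20, a large scaffold of the processome, had 146 and 163 in the Dex+IL-9 arrays, 148 and 162 in the IL-9 arrays, 169.9 and 168 in the Dex+CCL-1 arrays and 173 and 166 in the CCL-1 arrays, against 159.6 and 89.8 in the Dex arrays and 136 and 148 in the unstimulated arrays. The CCL-1-treated arrays were the 4 highest, in a range of 166 to 173. Its CCL-1 difference of 0.35 (SE 0.17, adjusted p = 0.897) was 0.17 without Dex 2. Wdr43, a processome scaffold that binds the precursor, had 420.0 and 424 in the Dex+IL-9 arrays, 396 and 391 in the IL-9 arrays, 354 and 417 in the Dex+CCL-1 arrays and 383 and 425 in the CCL-1 arrays, against 365 and 252 in the Dex arrays and 330.0 and 394 in the unstimulated arrays. All but Dex+CCL-1 1 were above 3 of the 4 arrays without cytokine. Its difference was 0.29 (SE 0.13, adjusted p = 0.580) with IL-9 and 0.16 without Dex 2.

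Utp18, another processome component, had 403 and 379.6 in the Dex+IL-9 arrays, 339 and 443 in the IL-9 arrays, 398 and 347 in the Dex+CCL-1 arrays and 376 and 354 in the CCL-1 arrays, against 341 and 297 in the Dex arrays and 331 and 386 in the unstimulated arrays. These ranges overlapped (0.20, SE 0.12, with IL-9). Rrp12, in yeast an export factor of both subunits, had 88.9 and 93.6 in the Dex+IL-9 arrays, 92.4 and 65.8 in the IL-9 arrays, 94.1 and 57.2 in the Dex+CCL-1 arrays and 74.0 and 72.2 in the CCL-1 arrays, against 68.2 and 76.3 in the Dex arrays and 74.9 and 59.3 in the unstimulated arrays. The spread within pairs was as wide as that between groups. The other small-subunit members, the processome proteins Heatr1 and Nop14 and the U3-associated Imp3 and Imp4, had IL-9 differences of 0.26, 0.093, 0.084 and 0.14 and CCL-1 differences of 0.23, 0.19, 0.053 and 0.14.

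The 12 large-subunit genes had 10 positive differences with IL-9 (median 0.20) and 11 with CCL-1 (median 0.11). Without Dex 2 the CCL-1 values were 10 positive and a median of 0.20. Bop1, a WD-repeat protein that forms the PeBoW complex with Pes1 and Wdr12, had 409 and 359.5 in the Dex+IL-9 arrays, 419 and 507 in the IL-9 arrays, 368 and 436 in the Dex+CCL-1 arrays and 363 and 435 in the CCL-1 arrays, against 267 and 379.9 in the Dex arrays and 328 and 351 in the unstimulated arrays. Dex 2 lay among the cytokine arrays and the other 3 arrays without cytokine below them. The IL-9 difference was 0.34 (SE 0.13, adjusted p = 0.516), and 0.46 without Dex 2. Pes1 had 321 and 318 in the Dex+IL-9 arrays, 294 and 244 in the IL-9 arrays, 300.0 and 272 in the Dex+CCL-1 arrays and 319.7 and 257 in the CCL-1 arrays, against 254 and 319.6 in the Dex arrays and 276 and 274 in the unstimulated arrays. The complex was uneven: Pes1 differed by 0.061 (SE 0.11) with IL-9 and 0.10 (SE 0.13) with CCL-1, and Wdr12 by 0.23 (SE 0.13) and 0.28 (SE 0.14).

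Nip7, a partner of the methyltransferase Nop2 in pre-60S particles, had 534 and 472 in the Dex+IL-9 arrays, 517 and 486 in the IL-9 arrays, 480.1 and 490.4 in the Dex+CCL-1 arrays and 545 and 474 in the CCL-1 arrays, against 420.0 and 508 in the Dex arrays and 381 and 422 in the unstimulated arrays. Every cytokine array was above the unstimulated pair and Dex 1. Its difference was 0.21 (SE 0.11) with IL-9 and 0.25 (SE 0.12) with CCL-1, and that of Nop2 0.21 (SE 0.12) and 0.26 (SE 0.13). Ebna1bp2, a pre-60S factor, had 529.5 and 529.5 in the Dex+IL-9 arrays, 568 and 523 in the IL-9 arrays, 644 and 521 in the Dex+CCL-1 arrays and 633 and 576 in the CCL-1 arrays, against 556 and 587 in the Dex arrays and 522 and 580.1 in the unstimulated arrays. With IL-9 it differed by -0.059 (SE 0.11), and its other, dim probe set by 0.15.

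Nop16 had 326 and 332 in the Dex+IL-9 arrays, 378 and 269.8 in the IL-9 arrays, 359.9 and 290.1 in the Dex+CCL-1 arrays and 348 and 330.0 in the CCL-1 arrays, against 281 and 377 in the Dex arrays and 309 and 262 in the unstimulated arrays. Dex 2 and IL-9 1 were the 2 highest arrays of this nucleolar protein, a pre-60S factor in yeast. Rrp1b, a nucleolar relative of the yeast pre-60S factor Rrp1, had 196 and 163 in the Dex+IL-9 arrays, 127 and 165 in the IL-9 arrays, 139 and 114 in the Dex+CCL-1 arrays and 148 and 144 in the CCL-1 arrays, against 131 and 118 in the Dex arrays and 159 and 151 in the unstimulated arrays. Its difference was 0.20 (SE 0.13) with IL-9 and -0.018 (SE 0.14) with CCL-1, where median centring gave 0.017. The remaining members were Rrs1, which helps 5S RNA into the subunit, the RNA methyltransferase Ftsj3, the pre-60S factor Wdr74 and the nucleolar protein Noc2l. They had IL-9 differences of 0.25, -0.052, 0.29 and 0.072 and CCL-1 differences of 0.035, 0.074, 0.089 and 0.074.

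Groups that did not overlap give the same picture per gene. In the IL-9 average, every treated array was above every array without cytokine for Mybbp1a, Nolc1 and Noc4l (3 of 39 members, 7.69%), as for 2.50% of all probe sets, and no member was below (3.78% of all). In the CCL-1 average, 6 members were above, Mybbp1a, Nolc1, Ddx21, Utp20, Wdr12 and Nop2 (15.4%, against 3.27% of all probe sets), and none below (4.92% of all). With CCL-1 2 added, 5 of these stayed above without Wdr12 (1.98% of all) and none was below (3.01%). Without Dex 2, 8 members were above with IL-9 (4.80% of all) and none below (5.95%), and 11 were above with CCL-1 (6.08%) and none below (7.83%). These 8 added Nop10, Imp4, Bop1 and Nip7, whose Dex 2 level lay within the range of the IL-9-treated arrays, and Nhp2, whose Dex 2 level lay above it. Between the cytokines, only Noc4l was higher in every IL-9 array than in the 3 CCL-1 arrays (4.21% of all probe sets) and only Utp20 lower (4.29%).

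Without Dex, IL-9 against unstimulated cells gave 28 of 39 positive differences (median 0.13, against 46.3% and -0.019 over all probe sets). No member passed by limma (0.0221% of all probe sets did), and 4 had an unadjusted p under 0.05, against 664 of all 13575 probe sets. Noc4l (0.66, SE 0.17, adjusted p = 0.782), Polr1a (0.54), Wdr74 (0.45) and Bop1 (0.43) were the highest, and Tcof1 (-0.21) the lowest. Both IL-9 arrays were above both unstimulated arrays for 13 members, as for 2172 of all probe sets (16%), and below for Tcof1 (19.6%). Within Dex, Dex+IL-9 against Dex gave 34 positive (median 0.19, against 46.3% and -0.021), again with no member past the threshold (0.0221% of all). Unadjusted, 4 members and 774 of all probe sets had a p under 0.05. Gnl3 (0.58, SE 0.23, adjusted p = 0.838), Rrp9 (0.52), Rrp1b (0.48) and Wdr43 (0.45) led there, and 16 members were above in both arrays (13.7% of all), with Ebna1bp2 below (20.4%). Without Dex 2 the median was 0.21 with 31 positive, while the nucleolar hub's median of 0.35 became 0.043. The 10 small-subunit genes then had 9 positive and a median of 0.23. If Dex 1 was left out instead, 5 members passed (Ncl, Gnl3, Nop58, Utp20 and Wdr43), where 4.93% of all probe sets did. The Dex arm was then the single array Dex 2, in which these members were at their lowest, and its spread was assumed to be that of the other groups. These passes thus repeat the low values of that array and show nothing further about Dex. The median of all members was 0.096 without Dex 1, against 0.19 with both Dex arrays, so the size of this rise depended on Dex 1.

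The CCL-1 comparisons ran likewise. CCL-1 1 against the unstimulated pair gave 32 positive differences (median 0.13, against 45.0% and -0.031 over all probe sets), led by Nolc1 (0.52, SE 0.19), Polr1a (0.48) and Nip7 (0.43). The value of Polr1a is that of its brightest probe set, and its others had CCL-1 averages of 0.0017 and -0.030. Neither any member nor any other probe set passed by limma, with 3 members and 446 of all 13575 probe sets at an unadjusted p under 0.05. The 1 array lay above both unstimulated arrays for 24 members (29.1% of all probe sets) and below for Ubtf, Rrs1 and Rrp1b (36.9%). Dex+CCL-1 against Dex gave 31 positive (median 0.14, against 49.3% and -0.0041), with no member past the threshold by limma (0.00737% of all). At an unadjusted p under 0.05 there were 885 of all probe sets and 2 members, Ddx21 (0.70, SE 0.23, adjusted p = 0.738) and Nop2 (0.38). Both arrays were above both Dex arrays for 10 members (13.8% of all) and below for Gar1 (18.7%). Without Dex 2, 31 were positive with a median of 0.15, and Ncl, at 0.44 with Dex 2, was -0.022. The median of the members was 0.075 if Dex 1 was left out instead, against 0.14 with both Dex arrays. Without Dex 1, on the same terms as above, Ncl, Ddx21 and Utp20 passed, where 3.91% of all probe sets did.

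The cytokine effect with Dex was next set against that without Dex. For IL-9 this difference was positive in 20 of 39 members with a median of 0.014, and for CCL-1 in 19 with a median of -0.020. No member and no other probe set passed in either by limma, with 1 member for IL-9 and none for CCL-1 at an unadjusted p under 0.05. Of all 13575 probe sets, 215 for IL-9 and 390 for CCL-1 had such a p. The member for IL-9 was Rrp1b (0.56, SE 0.26), whose signals of 196 and 163 with Dex+IL-9 stood against 131 and 118 with Dex, and 127 and 165 with IL-9 against 159 and 151 in unstimulated cells. IL-9 against CCL-1, averaged over the Dex conditions, gave 19 positive differences with a median of -0.0024. No member passed (0.236% of all probe sets did), and 1 had an unadjusted p under 0.05, against 627 of all probe sets. After Noc4l the highest were Rrp1b (0.22, SE 0.14) and Rrs1 (0.21, SE 0.15), and the lowest Tcof1 (-0.19, SE 0.14). The place of Tcof1 depended on the probe set. Its other, dimmer probe sets had IL-9 averages of 0.019 and -0.012 and CCL-1 averages of -0.22 and -0.27, so IL-9 lay above CCL-1 in them.

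In the array Dex 2, 9 of the 39 members (23.1%) were at their lowest (Ncl, Npm1, Ddx21, Gnl3, Nop58, Utp20, Utp18, Wdr43 and Rrs1), a share near the 17.0% of all probe sets that were lowest there. Of the 39 members, 5 (Ncl, Npm1, Gnl3, Nop58 and Utp20) lay more than 0.5 log2 below the next array. Over all probe sets 591 of 13575 did, a smaller share. Against the mean of the other 11 arrays, Nop58 was at -0.95, Gnl3 at -0.83, Ncl at -0.82, Ddx21 at -0.77, Utp20 at -0.72, Npm1 at -0.68 and Wdr43 at -0.60. Other members stood above that mean, with Nop16 at 0.25, Ubtf at 0.21 and Wdr74 at 0.19. Where a gene had several probe sets most were low together: the 4 of Ncl lay between -1.09 and -0.80, those of Npm1 at -0.68 and -0.59, and those of Wdr43 at -0.60 and -1.28. Ddx21 was the exception, with its other probe set at -0.20. Dex 1 was the lowest array for 9 other members (Mybbp1a, Nolc1, Nhp2, Noc4l, Imp4, Rrp9, Bop1, Nop2 and Noc2l), the same 23.1% but against 7.41% of all probe sets, and for none by more than 0.5 log2. In RNA from whole cultures, fewer cells of a kind and less RNA per cell cannot be told apart, and what set Dex 2 apart was not tested.

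**Figure D4:**
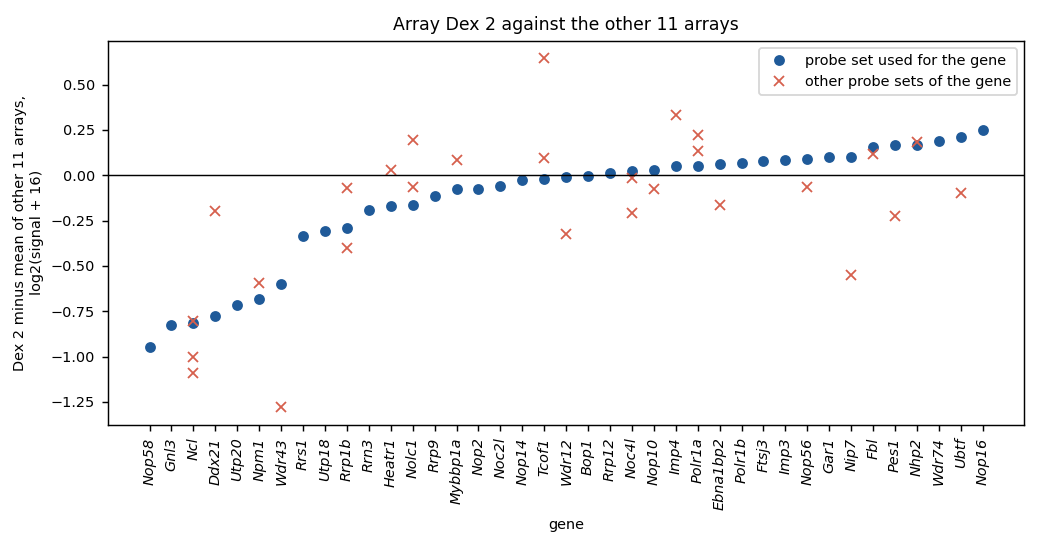
For each gene, ordered along the horizontal axis, the vertical axis gives the level in Dex 2 minus the mean of the other 11 arrays, in log2(signal + 16). Circles are the probe sets used for the genes and crosses their other probe sets above the filter. The 7 circles furthest left lie between -0.95 and -0.60 while most others lie within 0.3 of 0, and the crosses of Ncl, Npm1 and Wdr43 are low as well.

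Dex itself was tested within each array number, because the arrays labelled without Dex and numbered 1 held glucocorticoid targets at the Dex level. In the arrays numbered 2, Dex against no Dex gave 16 of 39 positive differences (median -0.051, against 47.7% and -0.012 over all probe sets). No member passed by limma, where 0.597% of all probe sets did. An unadjusted p under 0.05 was found for 4 of the 39 members and 1423 of all 13575 probe sets, a like share. All 3 box H/ACA genes were positive, with Nop10 at 0.28 (SE 0.13, adjusted p = 0.466, and 0.17 without IL-9 2), Gar1 at 0.20 (SE 0.11) and Nhp2 at 0.16 (SE 0.12, and 0.077 without Dex 2). The box C/D genes were mixed, with Fbl at 0.23, Nop56 at -0.098 (0.035 without Dex+IL-9 2) and Nop58 at -0.42. All 5 hub genes were negative, from -0.46 for Ddx21 (SE 0.17, adjusted p = 0.380) to -0.10 for Nolc1. This shared sign rests on Dex 2: without it Ncl was at 0.28, Npm1 at 0.056 and Gnl3 at 0.013, with Ddx21 and Nolc1 both at -0.23.

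Of the other members, Nop16 (0.30, SE 0.15), Rrp12 (0.25, SE 0.17), Fbl (0.23, SE 0.11) and Pes1 (0.21, SE 0.14) were the highest. Nop58 (-0.42, SE 0.18) and Utp18 (-0.30, SE 0.12, adjusted p = 0.389) were the lowest. Without Dex 2, Nop10 (0.26), Fbl (0.23) and Utp18 (-0.26) moved little, while Nop58 was -0.15, Nop16 0.12 and Pes1 0.12. Rrp12 was 0.16 without Dex 2 and 0.15 without Dex+IL-9 2, and Pes1 was 0.065 without IL-9 2. Of the members, 5 were higher in every Dex array numbered 2 than in unstimulated 2 and IL-9 2 (Fbl, Gar1, Nop10, Wdr12 and Nop16, against 10.1% of all probe sets) and 2 lower (Nop58 and Utp18, against 10.7%). The array CCL-1 2, of the other array type, was not in these counts. Its signals of 1845 for Fbl, 330 for Nop16 and 354 for Utp18 lay within the range of the Dex arrays numbered 2. For Nop10, Wdr12 and Nop58 it lay on the side of unstimulated 2 and IL-9 2. For Gar1, at 545, it lay midway between these arrays (513 and 512) and the lowest Dex array numbered 2 (575). In the arrays numbered 1, Dex against no Dex gave 18 positive differences (median -0.018, against 54.3% and 0.015), with no member and no other probe set past the threshold and no member at an unadjusted p under 0.05. Polr1a, Imp3 and Rrs1 were higher in all 3 Dex arrays (5.23% of all probe sets) and Fbl lower (3.48%).

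Number 1 against number 2 among the arrays labelled without Dex gave 23 positive member differences (median 0.020, against 46.3% and -0.020 over all probe sets). None passed by limma, where 0.796% of all probe sets did, and 4 had an unadjusted p under 0.05: Nop16 (0.35, SE 0.15), and Rrp9 (-0.45, SE 0.15, adjusted p = 0.296), Ddx21 (-0.40) and Utp18 (-0.27) with higher levels in number 2. This comparison shares its arrays numbered 2 with the Dex comparison above. In it, 9 members were higher in every array numbered 1 (10.0% of all probe sets) and 3 lower (14.3%), and the box H/ACA genes Nop10, Gar1 and Nhp2 were at 0.28, 0.18 and 0.040. The array CCL-1 2 was left out of these counts as well.

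Beyond these members, 105 other biogenesis genes were measured. With IL-9, 80 had positive differences (median 0.14) and with CCL-1 81 (median 0.14), none past the threshold by limma in either. At an unadjusted p under 0.05 there were 14 and 10 of them, against 1164 and 760 of all 13575 probe sets. By class with IL-9, 31 of 39 large-subunit genes (median 0.19), 28 of 36 small-subunit genes (0.15), 9 of 12 exosome genes (0.10) and 6 of 6 ribonucleoprotein assembly genes (0.13) were positive, but 6 of 12 other polymerase I genes (-0.013). With CCL-1 these counts were 33, 30, 9, 5 and 4. The highest with IL-9 were Dimt1, an 18S rRNA dimethylase (0.62, SE 0.16, adjusted p = 0.256), and Nle1, a pre-60S factor (0.59, SE 0.14, adjusted p = 0.224), before Mphosph10 of the processome (0.45, SE 0.23). Dimt1 had 179 and 118 in the Dex+IL-9 arrays and 144 and 171 in the IL-9 arrays, against 104 and 77.5 in the Dex arrays and 92.2 and 99.7 in the unstimulated arrays, with no overlap. With CCL-1, Mphosph10 (0.54, SE 0.25), which had 51.3 in Dex 2 and 150.2 to 194 elsewhere, Bysl (0.50, SE 0.16) and Gnl2 (0.49, SE 0.20) led.

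Ribosomal protein genes, the partners that these factors assemble, were listed separately, and their difference from the biogenesis factors was not tested. Of 44 measured, 38 had a positive IL-9 average (86.4%, against 84.6% of the members) with a median of 0.059, and 35 a positive CCL-1 average with a median of 0.054. The IL-9 average held 41 of 44 positive (median 0.21) against unstimulated cells and 5 of 44 (median -0.10) within Dex. For CCL-1 the counts were 17 (median -0.035) without Dex and 39 (median 0.13) within Dex. Under Dex in the arrays numbered 2, 42 of 44 were positive with a median of 0.27 (40 and 0.35 without Dex 2). There 16 of 39 of the biogenesis factors and 47.7% of all probe sets were positive, and no gene of either list passed by limma. In the arrays numbered 1, 5 of 44 ribosomal protein genes were positive with Dex (median -0.11). Number 1 against number 2 without Dex gave 39 of 44 positive (median 0.18).

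**Figure D5:**
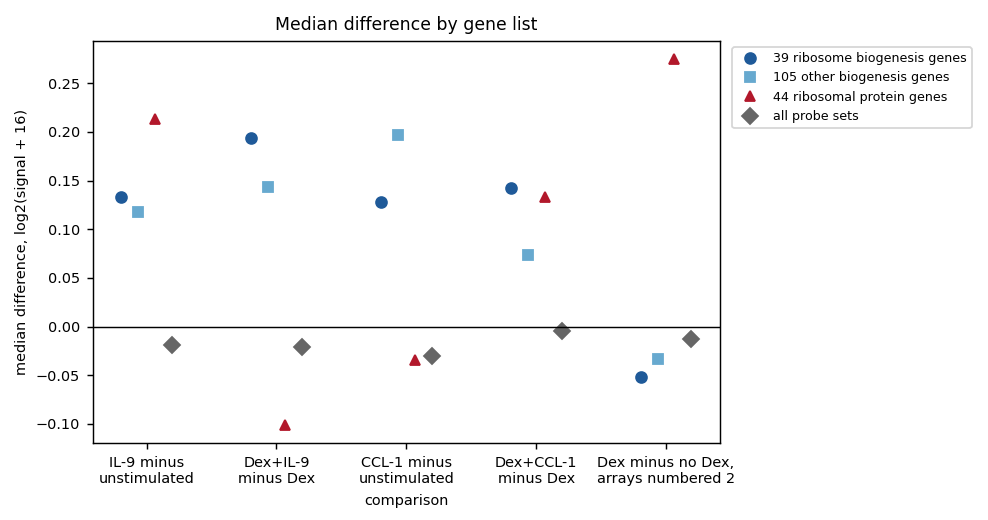
Median log2(signal + 16) difference of the 39 ribosome biogenesis genes, the 105 other biogenesis genes, the 44 ribosomal protein genes and all 13575 probe sets in 5 comparisons. Both biogenesis lists lie between 0.073 and 0.20 in the 4 cytokine comparisons and near 0 for Dex, while ribosomal protein genes range from -0.10 with Dex+IL-9 to 0.27 with Dex.

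Myc, the transcription factor that drives many of these genes, had signals of 524 and 467 in the Dex+IL-9 arrays, 483 and 391 in the IL-9 arrays, 473 and 429 in the Dex+CCL-1 arrays and 466 and 363 in the CCL-1 arrays, against 453 and 513 in the Dex arrays and 469 and 370.3 in the unstimulated arrays. The 3 arrays labelled without Dex and numbered 2 were the lowest. Myc differed by 0.047 (SE 0.12) with IL-9, 0.031 (SE 0.13) with CCL-1 and 0.32 (SE 0.12, adjusted p = 0.378) with Dex in the arrays numbered 2. The 8 measured members with an E-box were all positive with IL-9 (median 0.21, 0.029 to 0.29), and 20 of 25 members with a promoter but no E-box (median 0.20, -0.070 to 0.51). With CCL-1, 8 of 8 (median 0.18) and 22 of 25 (median 0.16) were. As a description, in both averages the highest and the lowest member were genes without an E-box.

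Agreement between probe sets of a gene gives a second look at single values. Of the 68 probe sets of the 39 members, 67 passed the filter, and 21 members had more than 1. The IL-9 average had the same sign in all probe sets of 14 of these 21 members, and the CCL-1 average in 17. For Noc4l the IL-9 values were 0.51, 0.43 and 0.45, for Mybbp1a 0.25 and 0.16, and for Nolc1 0.29, 0.25 and 0.050. For CCL-1, Nolc1 had 0.38, 0.23 and 0.23 and Mybbp1a 0.29 and 0.28. The brighter probe set of Imp4 was at 0.14 for IL-9 and its dimmer one at -0.26.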

How the data were processed

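The deposited tables hold 1 signal intensity per probe set and array, made by the authors with MAS5 (version not given in the sources used here), per the submitters' processing notes. The trimmed mean intensity was 100.04 to 100.05 on every array. Of 22690 probe sets, 64 controls were removed. Tests used log2(signal + 16), which understates changes of dim genes, in limma 3.58.1 (R 4.3.3) with an intensity trend: a fit of 6 group means to the 11 arrays that share a table, or, for Dex within a number and number 1 against 2, cytokine, number and Dex within number as terms. The 13575 probe sets above the 40th percentile of the mean (signal 6.32) were tested, with Benjamini-Hochberg adjustment over all of them and a threshold of 0.05. The method was tested on simulated data with planted changes larger than any difference of a member, so it was not tested on changes of the members' size. The number of arrays limits the precision, with 5 residual degrees of freedom. Genes were named from the platform annotation, where 20380 probe sets had 1 symbol, of which 20351 matched the gene table. Values per array are given for the 2 brightest members of each role, and the 5 highest and 3 lowest members in the averages and in Dex within number 2. Of the 10 same-numbered pairs of groups in the larger table, 5 had a correlation of deviations above 0.1 (-0.0051 to 0.31). The pairs with the CCL-1 group, which use CCL-1 2, had 0.18 to 0.35. Arrays of the same number thus shared some of their deviations. The fit of group means has no term for number and does not account for this, and fits with such a term are among the alternatives. Alternatives covered pseudocount, filter, scaling, probe set rule, array number and single arrays. The members and lists were chosen with earlier results of these data known.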

Additional observations from a re-analysis of the deposited data

How the results depend on the processing

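Over all alternatives, 265 of the recomputed counts of members past the threshold and 248 of the median differences stayed within the set tolerance, while 4 and 21 did not, and 13 differences of named members turned sign. Where a value moved, the cause was not tested. With 1 array omitted in turn, members past the threshold numbered 0 to 5 for Dex+IL-9 against Dex and 0 to 3 for Dex+CCL-1 against Dex, both highs without Dex 1, where the lone array Dex 2 is assumed to vary like the other groups. Under the same omissions the median difference was 0.109 to 0.159 for IL-9 against unstimulated, 0.0956 to 0.246 for Dex+IL-9 against Dex, 0.160 to 0.217 for the IL-9 average, 0.122 to 0.172 for CCL-1 against unstimulated, 0.0746 to 0.168 for Dex+CCL-1 against Dex and 0.117 to 0.183 for the CCL-1 average. It was -0.0899 to 0.0668 for the difference of the IL-9 effects with and without Dex, -0.117 to 0.0397 for that of the CCL-1 effects, -0.0650 to 0.00961 for Dex in the arrays numbered 2 (above 0 without Dex+CCL-1 2, Dex+IL-9 2 or unstimulated 2) and -0.0605 to 0.00161 for Dex in those numbered 1 (above 0 without Dex 1). The lowest medians for Dex+IL-9 against Dex and for Dex+CCL-1 against Dex were those without Dex 1. Median centring shifted the median of all probe sets by 0.11 for CCL-1 against unstimulated and by -0.14 for the difference of CCL-1 effects. The members' medians were then 0.23 and -0.16, and 0.19 for IL-9 against unstimulated. With the replicate number as a block, the median for CCL-1 against unstimulated was 0.18 and no member was called. The arrays numbered 1 alone gave a CCL-1 median of 0.20. Those numbered 2 alone gave medians of 0.11 for IL-9 and 0.092 for CCL-1. In these fits of 1 number each group has 1 array, so their spread holds no difference between arrays of a group. The fit chosen after seeing the data, with number and Dex within number as terms and CCL-1 2 added, called 1 member, Noc4l. The IL-9 difference of Nop56 was 0.18 in the arrays numbered 1 alone, 0.085 as the mean of its probe sets and -0.129 to 0.0234 with single arrays omitted (0.00067 without unstimulated 2). That of Ebna1bp2 was 0.026 in the arrays numbered 1 alone and 0.046 as the mean of its probe sets. The CCL-1 difference of Rrp1b was 0.017 under median centring, 0.066 as the mean of its probe sets and -0.0830 to 0.0472 with single arrays omitted (0.015 without Dex 1). That of Gar1 was 0.0049 under median centring, 0.012 in the arrays numbered 2 alone and -0.0956 to 0.0365 with single arrays omitted. CCL-1 against unstimulated could not be fitted without CCL-1 1. The precision is limited by 2 arrays per group, and all 39 members lay above the low-signal filter.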
